A study of Acanthocheilonema viteae with 2 samples.

Results

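The miRNAs miR-45 and miR-279 of the filarial nematode Acanthocheilonema viteae share a seed. A seed is the stretch at bases 2 to 8 by which a miRNA mainly recognises its targets. The 2 miRNAs were present in very different proportions in the single library of female and the single library of male secretions. The family was taken by name, as nematode-named entries with miR-44, miR-45, miR-61, miR-247 or miR-279 in the name, which picked 2 of the 384 deposited entries, bma-miR-45 and bma-miR-279_R+1. The names come from Brugia malayi, a related filarial worm. The other arm of the miR-279 hairpin, deposited as bma-mir-279-p5, and the seed match PC-3p-32892_9, a predicted candidate miRNA without a species name, are described beside them. The numbers miR-44, miR-61 and miR-247 had 0 nematode-named entries in the table analysed here. The pair was chosen because earlier results on these libraries showed the members to differ in direction, so their difference is described here and supports nothing by itself.

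There was 1 library from adult females and 1 from adult males, each made from culture medium in which worms of that sex had been kept for up to 3 weeks. The medium was filtered and ultracentrifuged, and RNA was taken from the washed pellet, where extracellular vesicles collect along with other large particles. The deposited entries summed to 292740 reads for the females and 74881.3 for the males. Nematode-named and candidate entries, called worm reads below, accounted for 93.3% of reads in the female library and 48.6% in the male. The remainder stood under mammalian names. The difference in worm reads makes each female-to-male ratio of shares 1.92 times lower over worm reads than over all reads. Any further part of it in the ratios below was not tested. Neither sex was replicated, so every ratio compares these libraries, without a test and without a spread between replicates. In secreted RNA, fewer releasing cells and less RNA per cell cannot be told apart.

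A miRNA is cut from a hairpin, and usually one arm is loaded into an Argonaute protein while the other arm is mostly degraded. Members of a seed family can share targets through bases 2 to 8 and differ in the rest of the sequence. In Caenorhabditis elegans the mir-44 family, to which miR-45 belongs, promotes sperm fate in the hermaphrodite germ line, and miR-61 of the same seed family acts in vulval precursor cells downstream of Notch signalling. In Drosophila, miR-279 represses the formation of CO2-sensing neurons and acts in the rhythm of rest and activity.

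The mature sequences are shown to set the shared seed, in capitals, beside the parts that differ. They are given 5′ to 3′ as deposited, with T for U.
bma-miR-45: cGACTAGAggaacattcagcat
bma-miR-279_R+1: tGACTAGAaccatactcagct
PC-3p-32892_9: tGACTAGAggtgtactcggc

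All 3 carried GACTAGA at bases 2 to 8. No further entry held this 7-mer at any position, and 0 mammal-named entries did, so no mammal-named reads enter the counts of this seed. Each of the 3 sequences stood on a single entry with whole reads, so none of these counts had been divided between names.

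Outside the seed the members differed in the first base, in the middle and in the last base compared. Aligned without gaps from the 5′ end, with positions counted from 1 there, miR-45 and miR-279 were identical at 14 of 21 positions. The differences from miR-279 to miR-45 were T1C, A9G, C10G, C11A, T13C, C15T and T21A. The longest stretch shared after the seed was TCAGC at positions 16 to 20. The candidate was identical to miR-279 at 15 and to miR-45 at 14 of 20 positions. It differed from miR-279 by A9G, C10G, C11T, A12G and A18G, and from miR-45 by C1T, A11T, A12G, C13T, T15C and A18G. It therefore has the first base of miR-279 and the bases at positions 9 and 10 of miR-45.

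In length the 3 sequences were 22 nt for miR-45, 21 nt for miR-279 and 20 nt for the candidate. The name of the miR-279 entry carries the suffix R+1. No reference sequence was given, so its length and its last base, at position 21, describe this entry alone. The 127 distinct worm sequences ranged from 18 to 26 nt with a median of 22, and 46 of them had 22 nt, 21 had 21 nt and 5 had 20 nt. The first base of miR-45 is C, as in 21 (16.5%) of the 127 worm sequences, whereas that of miR-279 and of the candidate is T, as in 63 (49.6%). By edit distance, the number of single-base changes between 2 sequences, miR-279 was the worm entry closest to miR-45, with a distance of 7. The candidate followed at 8 and bma-miR-5365b_R-2, which has another seed, at 9. For miR-279 the closest was the candidate at 6, then miR-45 at 7, and then PC-3p-100_2763 and bma-miR-5365b_R-2, both with another seed, at 9.

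The miRNA miR-45 had 2678 reads in the female library and 24 in the male. These were 0.915% of all female reads (95% exact Clopper-Pearson interval 0.881 to 0.950) and 0.0320% of all male reads (0.0205 to 0.0477). It ranked 17th of all entries in the female library, just above bma-miR-307_R-1, and 169th in the male, level with 2 other entries at 24 reads. Among worm reads it fell from rank 17 to rank 60. A level share of all reads would have put 685 of its reads in the male library, and a level share of worm reads 357.

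The miRNA miR-279 was among the most abundant in both libraries, with 5653 female and 2499 male reads. It took 1.93% of all female reads (1.88 to 1.98) and 3.34% of all male reads (3.21 to 3.47). Among worm reads these were 2.07% and 6.87%. It ranked 8th of all entries in the female and 6th in the male library, and 4th among worm entries there, where bma-miR-100d_R+1 stood above it with 4428 reads and asu-miR-81a below it with 1887. A level share of all reads would have given 1446 male reads, and a level share of worm reads 753.

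**Figure D1:**
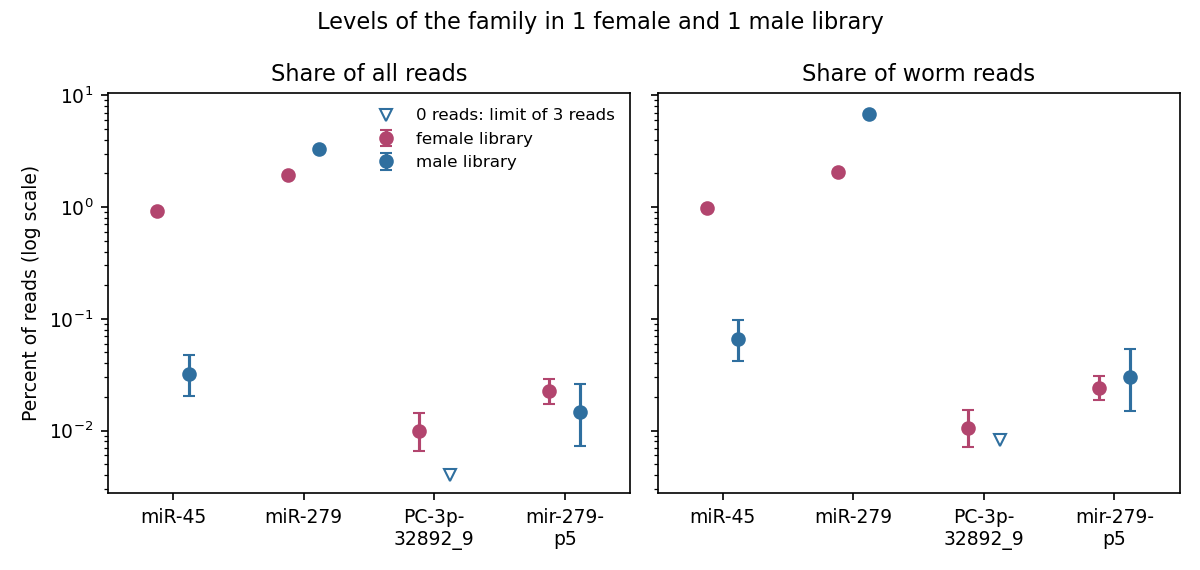
Share of reads (percent, log axis) of miR-45, miR-279, the candidate PC-3p-32892_9 and the arm mir-279-p5 in the female and the male library, over all reads (left) and over worm reads (right). Points are the 2 libraries, bars are 95% Clopper-Pearson counting intervals, and the open triangle is the limit of 3 reads for the candidate at 0 male reads; miR-45 is far lower in the male library and miR-279 is higher there on both share scales.

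As shares of all reads, miR-45 had a female-to-male ratio of 28.5 (95% exact conditional binomial interval 19.1 to 44.6) and miR-279 of 0.579 (0.552 to 0.607), which is 1.73-fold toward the male. As shares of worm reads, the ratio of miR-45 was 14.9 (9.97 to 23.2) and that of miR-279 was 0.301 (0.287 to 0.316), 3.32-fold toward the male. The members thus lay on opposite sides of 1 on both share scales. Beyond 2-fold over all reads, miR-45 was on the female side, where 35.7% of the 112 worm entries with at least 10 reads in a library also stood, and miR-279 was beyond 2-fold on neither side, with 18.8% of these entries on the male side. Over worm reads miR-45 was beyond 2-fold on the female side, with 8.04% of worm entries, and miR-279 on the male side, with 33.9%. A share near the background says little of a member, and the contrast was used to choose the pair.

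The opposite direction of the pair holds on the share scales and not on the others. On the authors' normalized values both members were higher in the female library, miR-45 with a ratio of 133 and miR-279 with 2.70. On these values 85.7% of the worm entries were beyond 2-fold on the female side, against 5.36% on the male side. These values keep the difference in total reads, and an equal share of all reads gives 4.67 on them. The miR-279 ratio lay below this point and that of miR-45 above it. A position among the worm entries is the same under every scaling. Against the median ratio of the 83 with at least 10 reads in a library and reads in both, miR-45 lay 23.2 times above and miR-279 lay 2.13 times below. Of these 83 entries 0 had a higher ratio than miR-45 and 20 had a lower ratio than miR-279. Among the 35 of them with at least 1000 reads over both libraries, 4 had a lower ratio than miR-279. Entries read in a single library were left out of the 83, and most of those were read in the female library alone. Among these were bma-miR-234_R+3, with 88 female and 0 male reads, and the candidate, with 29 and 0. Their ratios have no upper limit, so they could not be placed against miR-45.

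**Figure D2:**
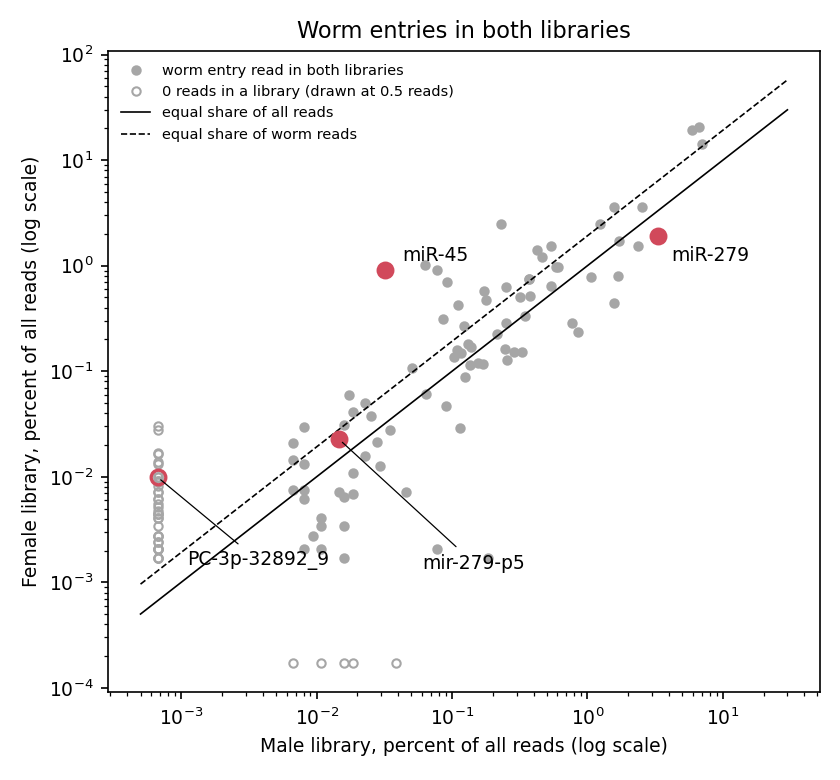
Each of the worm entries by its percent of all reads in the male (x, log axis) and the female library (y, log axis), with the members, the candidate and the mir-279-p5 arm in red and entries at 0 in a library drawn as open circles at 0.5 reads. The solid line is an equal share of all reads and the dashed line an equal share of worm reads; miR-45 lies far above both lines and miR-279 below both.

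The proportion of miR-45 to miR-279 within a library does not depend on how the library is scaled. There were 2.11 reads of miR-279 for each read of miR-45 in the female library and 104 in the male. The proportion of miR-45 to miR-279 was thus 49.3 times higher in the female library, with a 95% exact interval of the odds ratio of 33.0 to 77.3. At the female proportion, the 2499 male reads of miR-279 would have come with 1184 reads of miR-45, against the 24 seen. The interval covers counting error only and rests mainly on those 24 reads, whose own Poisson interval was 15.4 to 35.7.

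As shares of reads, the entries with the shared seed summed to a ratio between those of miR-45 and miR-279. A sum of these 2 alone must lie there, and the candidate, with 29 female and 0 male reads, changed it little. Over the 3 entries with GACTAGA the female library held 8360 reads, 2.86% of all its reads, and the male library 2523 reads, 3.37%. As shares of all reads these sums had a ratio of 0.848 (0.811 to 0.886), and as shares of worm reads of 0.441 (0.422 to 0.461). The makeup of the sums differed: miR-45 gave 32.0% of the female reads of this seed (31.0 to 33.1) and 0.951% of the male (0.610 to 1.41), whereas miR-279 gave 67.6% and 99.0%. On the authors' normalized values the sum was on the female side, with a ratio of 3.96, further from 1 than that of miR-279 alone at 2.70. Both lay below the 4.67 that an equal share of all reads gives on these values.

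**Figure D3:**
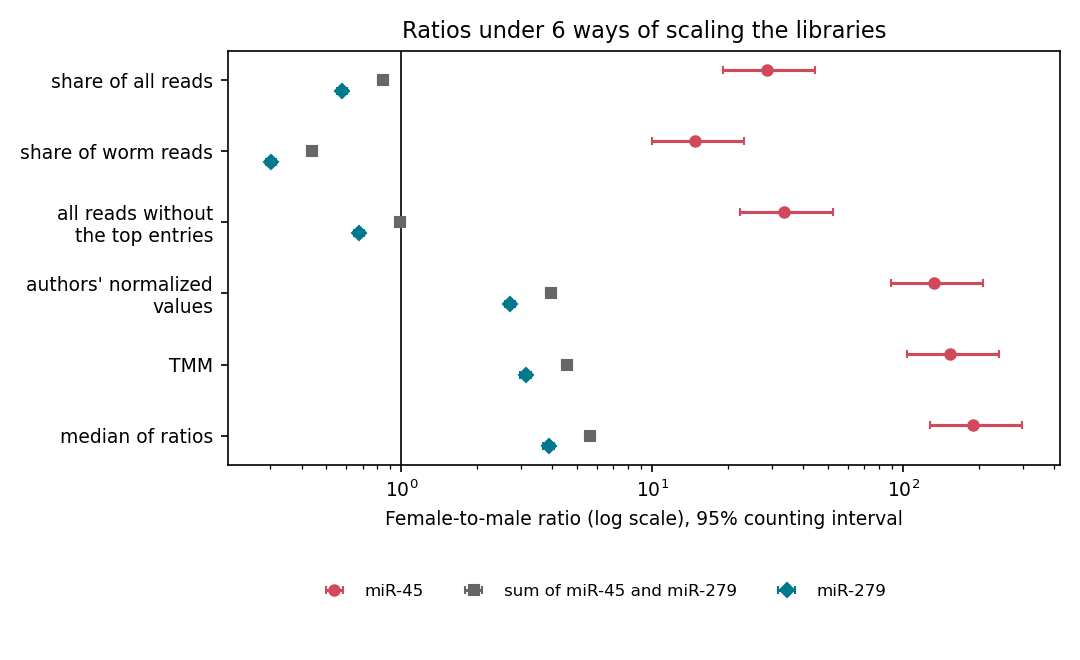
Female-to-male ratio (log axis) of miR-45, of miR-279 and of their sum under 6 ways of scaling the 2 libraries, with 95% counting intervals. The vertical line marks equal levels; miR-45 stays to the right under all 6, from 14.9 to 190, while miR-279 moves from 0.301 to 3.86 and crosses the line, and the distance between the pair is 49.3-fold throughout.

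The candidate PC-3p-32892_9 had 29 reads in the female library and 0 in the male. Against a floor of 3 male reads, its share of all reads was 2.47-fold higher in the females, or 1.66-fold at the lower 95% counting limit of its 29 reads. The exact conditional lower limit for all reads was 1.89. Its share of worm reads was 1.29-fold higher against this floor. Since the exact conditional lower limit for worm reads was 0.982, a difference was not detectable on that scale. At the proportion it had to miR-279 in the female library, the male library would have held 12.8 of its reads, and at its proportion to miR-45 it would have held 0.260. Relative to miR-279 it was 4.27-fold more abundant in the females against the floor (95% exact lower limit 3.26). Relative to miR-45 the depth could not show a difference, since the exact lower limit of the female-to-male odds ratio was 0.0615 and it has no upper limit.

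The other arm of the miR-279 hairpin is shown to place it beside the mature strand.
bma-mir-279-p5: ctgagcatggttcttagtcatg
This arm of 22 nt has another seed and was not among the entries picked by the spelling of the rule. In a predicted duplex with miR-279 it formed 18 base pairs at -24.3 kcal/mol, with the first base of each strand paired and 2 unpaired bases at each 3′ end, the ends that hairpin cutting typically leaves. The unpaired bases of miR-279 include its last base, at position 21. Of the 302 other distinct sequences, it was the only one to form such ends with miR-279, and its energy was the lowest. For miR-45 and for the candidate 0 of the 302 sequences formed such ends, so no partner arm of either was found among the deposited entries by this measure. The duplex of the candidate with mir-279-p5 had 17 pairs at -16.4 kcal/mol, with the first base of each strand paired. It left 1 unpaired base at the 3′ end of the candidate and 2 at that of the arm. The duplex of miR-45 with this arm had 16 pairs at -12.7 kcal/mol. It left the first base of miR-45 unpaired and 3 unpaired bases at each 3′ end. How often the known arm pairs of other hairpins form such ends was not tested.

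The mir-279-p5 arm had a higher female-to-male ratio than its mature strand. It was read 66 times in the female and 11 times in the male library, 0.0225% and 0.0147% of all reads. This is a ratio of 1.53 (0.804 to 3.22) for all reads, or of 0.799 (0.419 to 1.68) for worm reads. Both intervals include 1, so its own side was not detectable at this depth. Set against the mature strand, it was 1.15% of the reads of both arms in the female library and 0.438% in the male. There were 85.7 reads of miR-279 per read of the arm in the female library and 227 in the male, and the proportion of arm to mature strand was 2.65 times higher in the female library (95% exact interval 1.39 to 5.58). At the female proportion the male library would have held 29.2 reads of the arm.

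Set beside other hairpins, such a shift toward the minor arm in the female library was not particular to miR-279. Of 17 nematode-named hairpins with an entry for each arm by name, 5 had both arms read in both libraries. The minor arm took a larger part in the female library in miR-279 and in miR-5364, where the shift was 2.05 (1.22 to 3.58), and a smaller part in miR-87a, miR-34 and miR-239, with shifts of 0.201 (0.0708 to 0.594), 0.399 (0.148 to 1.14) and 0.933 (0.421 to 2.18). The interval for miR-87a lies below 1. In 10 further hairpins the minor arm had female reads and 0 male reads. The major arm of miR-5845 also had 0 male reads, so it has no male proportion. For miR-100a, miR-86, miR-228, miR-307 and miR-5360 the female proportion would have given 0.0782 to 0.492 male reads of the minor arm, too few to show a shift. Of the 10, miR-71, with 40 female reads of its minor arm, and miR-5361, with 16, had an exact lower limit of the shift above 1, at 2.65 and 1.40. In the remaining 2 hairpins the minor arm took a larger part in the male library. The minor arm of miR-153 had 22 female and 6 male reads against 49 and 0 of its major arm, with an upper limit of the shift of 0.427. That of miR-5838 had 0 female and 29 male reads against 6 and 58. Its upper limit was 1.83, so the side of miR-5838 was not detectable.

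The worm entries with the female-to-male ratio closest to each member had other seeds. The 3 closest to miR-45 over the 2 libraries were bma-miR-228 with a ratio of 16.4, bma-miR-307_R-1 with 11.8 and asu-miR-86-5p with 10.9, at log2 distances of 0.80, 1.27 and 1.39. All 3 were well covered, with 3005 and 47, 2675 and 58, and 7339 and 172 female and male reads. The 3 closest to miR-279 were PC-5p-16255_25, bma-miR-72 and bma-miR-239-5p_R-1, whose shares of all reads were higher in the male by 1.71-fold, 1.90-fold and 1.91-fold. Their log2 distances were 0.01, 0.14 and 0.14. None of them came near miR-279 in abundance, with 32 and 14, 138 and 67, and 442 and 216 female and male reads.

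Few other seeds held worm sequences that lay so far apart. Among worm sequences with at least 10 reads in a library and read in both, 14 seeds were carried by more than 1 sequence. For the 13 other seeds the highest ratio of a sequence was 1.01 to 71.2 times the lowest, with a median of 1.52, and in 9 of them it was under 2 times. The widest range was that of the miR-50 seed at 71.2 times (22.4 to 263), where asu-miR-50-5p had 5 female and 12 male reads. The GACTAGA seed came next at 49.3 times, with 2702 reads on its less abundant sequence, and then the miR-2 seed, with 8 sequences, at 8.13 times. Some of these sequences are length variants of a single miRNA, such as the 2 entries of miR-236, so the seeds are not alike in what they compare. The GACTAGA pair was chosen with its difference known, so its place in this order is a description only.

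**Figure D4:**
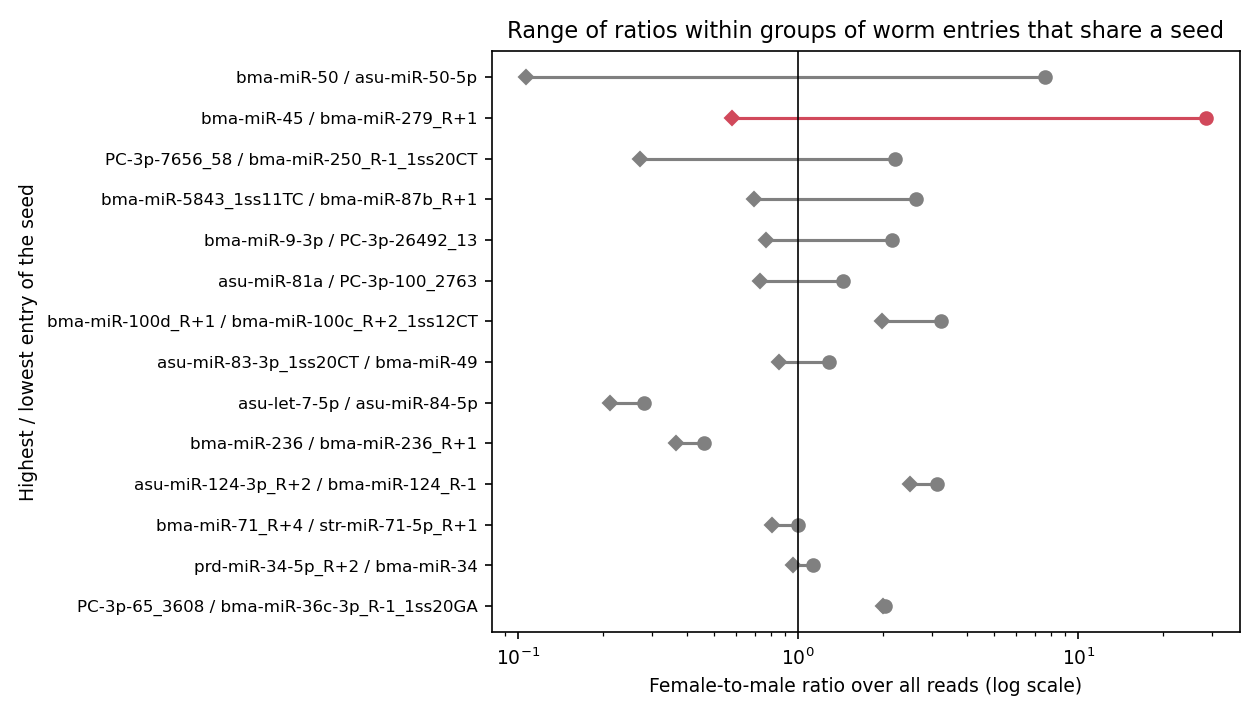
Female-to-male ratio over all reads (log axis) of the highest (circle) and lowest (diamond) worm sequence of each of the 14 seeds carried by more than 1 sequence, ordered by their distance, with the pair miR-45 and miR-279 in red. The vertical line marks an equal share; 2 seeds span far more than the others, at 71.2 and 49.3 times.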

How the data were processed

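Per the labels' protocols, small RNA libraries were made with Illumina TruSeq chemistry from total RNA of the ultracentrifuged pellet of culture medium. No source used here names the aligner, the genome or the release of the miRNA database. Per the file headers and values, the raw column the authors deposited holds estimated counts, with the reads of a sequence divided between its entries. They also deposited normalized counts, used here as a signal, which equalled the raw column times a constant of 1.09 for females and 0.915 for males. Columns of per-sample values left unused numbered 0. The smallest sum of an entry over both libraries was 2.5 reads, so a filter before deposit is possible.

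Counts were rounded for intervals and for TMM. Entries were called worm from the species codes of 6 nematodes or the prefix PC. Names show resemblance, not origin. An entry at 0 was set to a floor of 3 reads, which is 0.00102% of reads for females and 0.00401% for males. Entries with at least 10 reads in a library were compared by a size rule of 2-fold. Both intervals and floors cover the counting error of reads only, since neither sex was replicated. Without molecular identifiers several reads can stem from 1 molecule, so the error in counting molecules can be larger. Duplexes were predicted with RNAduplex of ViennaRNA 2.7.2, intervals were computed with scipy 1.17.1 and TMM with edgeR 4.0.16. The ratios of shares of all reads and the odds ratio intervals were tested on simulated Poisson counts, the model that these intervals assume. The other intervals, the floor and the other scalings were not tested in this way. The entries named are the members, all entries with their seed, the 3 closest in ratio and in sequence, and neighbours in rank. The mir-279-p5 arm, the other hairpins and the other seeds were added after seeing the data. Members and lists were chosen with earlier results of these data known.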

Additional observations from a re-analysis of the deposited data

How the results depend on the processing

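The side of miR-279 and of the sum depended on the scaling, and the proportion between the members did not: it was 49.3 under all 6 alternatives, since a factor common to a library cancels. The miR-45 ratio of 28.5 became 14.9 over worm reads, 133 on the authors' normalized values, 190 with median-of-ratios factors and 154 with TMM. The miR-279 ratio of 0.579 became 0.301 over worm reads and 0.678 without the most abundant entry of each library. It turned to the female side at 2.70 on the authors' values, 3.86 with median-of-ratios factors and 3.12 with TMM. The authors' values keep the difference in total reads, and an equal share of all reads gives 4.67 on them. The summed ratio of both members, 0.845, became 0.440 over worm reads and 0.990 without the top entries, and turned to 3.94, 5.63 and 4.56 on the same 3 scales. Adding the candidate or, as chosen after seeing the data, the mir-279-p5 arm left it at 0.848. Merging identical sequences left all of these ratios as they were.

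The 40 worm entries beyond 2-fold on the female side became 9 over worm reads, 96 on the authors' values, 101 with median-of-ratios factors and 99 with TMM, all of 112 entries. The 21 on the male side became 38, 6, 5 and 5. With at least 100 reads in a library, which leaves 59 entries, 24 were on the female and 7 on the male side. Median-of-ratios and TMM factors were set over all entries, mammal-named ones included. No paired analysis was possible because there was 1 library per sex, and no replicate could be left out. At 24 male reads of miR-45, 11 of mir-279-p5 and 0 of the candidate, male depth limits these values.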
